A study of Mus musculus with 9 samples.

Results

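Cochleae of mice with no normal Pou4f3 allele, titled Pou4f3(Δ/Δ) and called HOM here, were compared with cochleae of mice carrying a normal and a mutant allele, titled Pou4f3(Δ/+) and called HET. The members are the 1137 genes that the HOM libraries list, out of 51912 genes in the HET and wild-type libraries, and 1090 of them had enough signal to be tested. Libraries titled Pou4f3(+/+), called WT, served as the reference for a normal level. Each group had 3 libraries of whole cochlear RNA at postnatal day 3, and Δ is the mutant allele, of which the sources used here give neither the extent nor the strain background. The extraction protocol in the labels names wild-type and heterozygous mice, and the genotype characteristic of every sample contradicts its title, so groups follow the titles. Nothing in the labels says that replicates came from separate animals, so p-values measure the spread between these libraries, which may be technical.

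The listed genes are a selection: in each of the 1137 the 3 HOM libraries lie apart from the 3 WT libraries in the deposited values. The HET libraries took no part in that separation, and their level can therefore be read against both ends. The HOM libraries took part in it, and the tests of HOM against HET below use the same HOM values. Their p-values do not account for this. HOM and WT levels are given below as a description. A difference between them that led to a gene's listing is likely to be overstated, most of all where it is small, and the part this plays in the position of HET was not tested.

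Pou4f3 is a POU-domain transcription factor that, in the cochlea, is made in hair cells, the sensory cells that turn sound into electrical signals. Hair cells carry a bundle of actin-filled stereocilia whose tip links pull open mechanotransduction channels, and they pass the signal to neurons at ribbon synapses. Without Pou4f3 hair cells begin to form but do not mature and are lost, and loss of a single human allele is a known cause of inherited progressive deafness.

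Recovered sequencing depth was about 14300000 to 17400000 fragments in the 9 libraries. HET 1 stood apart within its group, together with WT 3. The summed level of the 10 Schwann and satellite glia markers was 764 FPKM (fragments per gene, corrected for its length and for the depth of the library) in HET 1 against 438 in HET 2 and 401 in HET 3, and it was 693 in WT 3 against 503 and 543 in the other WT libraries. Supporting cell markers summed to 1756 FPKM in HET 1 and to 1481 and 1411 in the other HET libraries, and blood, immune and endothelial markers to 166 against 82.1 and 121. The part of these differences in the results was not tested, and counts over all genes and over the hair cell genes are also given without HET 1. In WT the hair cell markers of the mechanotransduction list summed to between 108 and 124 FPKM. Cib2 alone gave 52.85, 57.39 and 68.37 of this in WT 1, 2 and 3, and it was still at 16.98 to 42.68 in HOM. The hair cell gene Otof was at 34.36, 33.58 and 35.34 in WT, so RNA of hair cell genes was present in the labelled tissue.

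Of 88 genes in the hair cell lists, 54 were listed in HOM and tested, and 53 of these were lower in HOM than in HET. Their median difference was -1.53 on the log2(FPKM + 1) scale. It was small in some, such as Pls1 (-0.15) and Ush1c (-0.21), and Isl1 was higher in HOM (0.18, not called). The HET range overlapped that of WT and not that of HOM in 39 of 54 hair cell genes tested, and in 25 of them without HET 1. It did so in 563 of all 1090 genes tested (51.7%), and in 501 without HET 1. Where HOM was lower than WT by at least 1 on the log2(FPKM + 1) scale, it did so in 96 of 120 genes (80%). Of the 1090 genes tested, 485 passed limma's threshold (Benjamini-Hochberg adjusted p of 0.05), which is 44.5%. They comprised 396 genes lower in HOM (36.3%) and 89 higher (8.17%). Of the genes lower in HOM, 116 differed by at least 1 on the log2(FPKM + 1) scale, against 0 of the genes higher in HOM, and 35 of the 116 belong to the hair cell lists. The listing bears on these directions. Of the genes tested, 747 were lower and 343 higher in HOM than in WT. By at least 1, 120 were lower and 1 was higher in HOM than in WT. Over all genes tested the median HOM minus HET difference was -0.16. Rescaling the libraries over the listed genes moved it to -0.02 (median-ratio) and 0.03 (upper-quartile). With these scalings 259 genes were lower and 257 higher, and 222 lower and 293 higher, so the balance of directions among small differences depends on the scaling. The number of calls was 508 without HET 1, 255 without HET 2 and 242 without HET 3. At the threshold itself, Clip2 and Aldh16a1 lay just inside (both at adjusted p = 0.04997) and Isl1 (0.0504) and Dhx57 (0.0512) just outside.

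Pou4f3 RNA was at 5.92, 1.36 and 9.39 FPKM in HOM 1, 2 and 3, at 24.21, 21.74 and 25.56 in HET, and at 25.02, 24.49 and 26.97 in WT. The HOM libraries lay below every HET library without overlap, whereas the HET and WT ranges overlapped. The difference between HOM and HET was -2.16 (SE 0.51, limma adjusted p = 0.0187), and an exact two-sided permutation test over the 6 libraries gave p = 0.1, the smallest that 3 against 3 allows. The limma call was lost without HET 2 (adjusted p = 0.0558) and without HET 3 (0.0614), with differences of -2.23 and -2.11. HET stood at 93.5% of the WT mean with a single normal copy of the gene. Whether reads from the mutant allele are part of this level was not tested.

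The place of HET was described in a pair of ways. The first is its position by library ranges: on the WT side when the HET range overlapped WT and not HOM, between when it overlapped neither and lay inside, beyond WT when it lay past WT, on the HOM side when it overlapped HOM and not WT or lay past HOM, and wide when it overlapped both. The second is the recovered share, the distance of the HET mean from the HOM mean as a percentage of the distance from HOM to WT, in FPKM. It is 0 at the HOM level and 100 at the WT level. Both are descriptions without a test.

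The promoters of 4 genes with large falls in HOM are shown because HET stood apart from WT in the first pair (Plscr5 and Atp2a3) and on the WT side in the second pair (Grxcr1 and Chrna10). Each is the 250 bases before the gene's start in RefSeq, build GRCm38.p6, written in the direction of transcription. Plscr5 lies at chr9:92192843-92193092 on the plus strand, Atp2a3 at chr11:72960919-72961168 on the plus strand, Grxcr1 at chr5:68031585-68031834 on the plus strand and Chrna10 at chr7:102116714-102116963 on the minus strand. Capitals mark ATTAAT or TAATTA, AT-rich words of the kind that POU homeodomain factors of this class bind, read on both strands; the words overlap each other and each is its own reverse complement.
Plscr5: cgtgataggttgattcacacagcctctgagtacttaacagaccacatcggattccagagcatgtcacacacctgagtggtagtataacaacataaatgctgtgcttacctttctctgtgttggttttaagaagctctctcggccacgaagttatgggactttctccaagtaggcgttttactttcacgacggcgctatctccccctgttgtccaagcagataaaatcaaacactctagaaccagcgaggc
Atp2a3: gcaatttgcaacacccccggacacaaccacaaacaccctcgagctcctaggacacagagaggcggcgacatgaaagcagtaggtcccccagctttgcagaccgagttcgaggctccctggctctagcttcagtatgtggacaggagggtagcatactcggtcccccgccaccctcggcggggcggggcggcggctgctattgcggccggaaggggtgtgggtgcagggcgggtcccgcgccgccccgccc
Grxcr1: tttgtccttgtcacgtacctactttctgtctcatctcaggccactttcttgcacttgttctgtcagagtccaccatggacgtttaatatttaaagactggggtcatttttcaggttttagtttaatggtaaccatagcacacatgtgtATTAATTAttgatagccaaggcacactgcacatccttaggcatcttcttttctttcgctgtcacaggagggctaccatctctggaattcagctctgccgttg
Chrna10: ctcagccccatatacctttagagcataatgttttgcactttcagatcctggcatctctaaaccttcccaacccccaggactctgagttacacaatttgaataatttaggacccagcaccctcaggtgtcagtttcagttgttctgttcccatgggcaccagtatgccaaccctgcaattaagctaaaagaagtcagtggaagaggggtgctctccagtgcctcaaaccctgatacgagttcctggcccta
The Grxcr1 promoter held both words in a single overlapping run of 8 bases, and the other 3 held none in this window. Over all 32851 promoters of the table, 7.99% held at least 1 of the words. The share was 6.78% of 398 promoters, from 301 genes, among genes lower in HOM than in HET. It was 9.62% of 104 promoters, from 86 genes, among genes lower by at least 1. Among listed hair cell genes it was 13.3%, or 8 of 60 promoters from 44 genes. Some genes gave several promoters and some gave none. A match is a string of letters and not a shown binding site.

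Over all 1090 genes, HET was on the WT side in 563 (51.7%), between in 67 (6.15%), beyond WT in 42 (3.85%), on the HOM side in 109 (10%) and wide in 309 (28.3%). Without HET 1 the counts were 501 on the WT side, 143 between, 163 beyond WT, 199 on the HOM side and 84 wide. With all libraries, the position went with how far apart HOM and WT were. Part of this follows from the definition. Where HOM and WT lie close, the spread of the HET libraries more easily reaches HOM or both groups. The counts therefore do not show that genes with large differences recover more fully. Where HOM was lower than WT by at least 1 (120 genes), HET was on the WT side in 96 (80%), beyond WT in 6, between in 14, on the HOM side in 2 and wide in 2. Where HOM and WT differed by less than 0.25 (453 genes), HET was on the WT side in 159 (35.1%), on the HOM side in 78 (17.2%) and wide in 180 (39.7%). The median distance between HOM and WT was 0.19 in the genes with HET on the HOM side, so these were mostly genes with small differences.

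Among the 120 genes with the large differences the median recovered share was 97.2% (quartiles 84.1 and 106.5). It was between 80 and 120 in 87 of them (72.5%), between 50 and 80 in 19, above 120 in 10 and below 50 in 4. Against HET, 115 of the 120 passed the test as lower in HOM. This test uses the same HOM values that placed the 120 so far below WT. The count is therefore largely set by that choice. HET 1 bears on the positions: without it 69 of the 120 were on the WT side, 18 beyond WT and 29 between, and the median share was 93.4%. Without HET 1 and WT 3 together, a choice made after the data were seen, 56 were on the WT side, 23 beyond and 37 between, and the median share was 96.3%. With HET 2 left out 91 were on the WT side, with HET 3 left out 95 and with WT 3 left out 85.

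**Figure D1:**
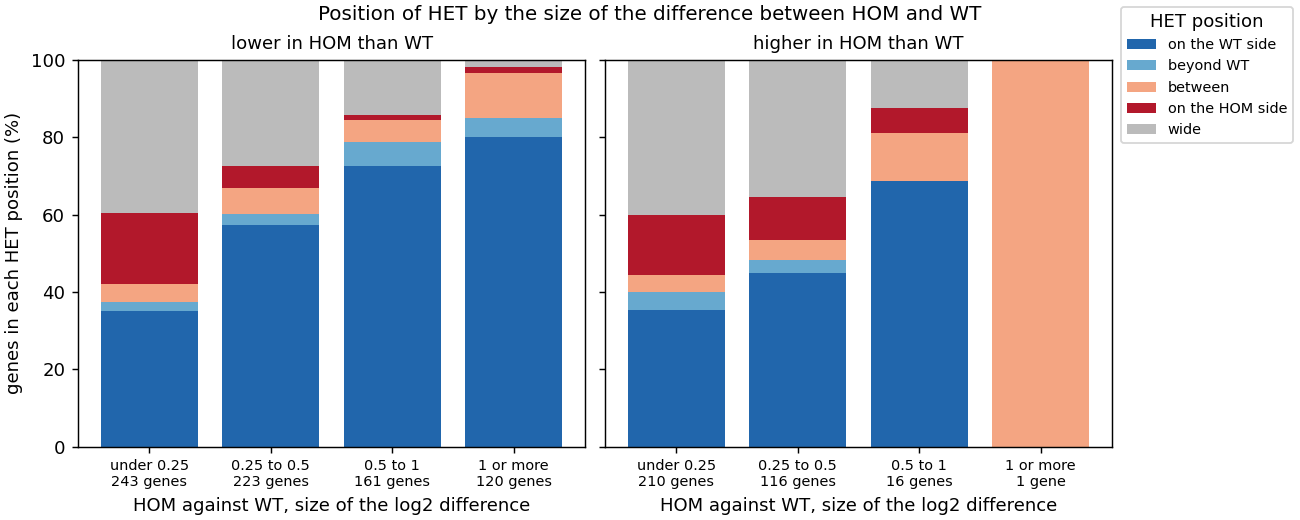
Share of listed genes (%, vertical axis) by the position of HET, in bins of the size of the HOM against WT difference on the log2(FPKM + 1) scale (horizontal axis), for genes lower (left) and higher (right) in HOM than in WT. The part on the WT side grows with the size of the difference and is 80% of the 120 genes lower by at least 1. Part of this growth follows from the definition, since overlap with HOM is easier where HOM and WT lie close. The bin of genes higher by at least 1 holds a single gene, Gnpda1.

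The recovered share had a higher median among genes lower in HOM than among genes higher in HOM, a difference that was not tested. It was 89.4% over 747 genes lower in HOM, of which 57.0% were on the WT side, and 69.7% over 343 genes higher in HOM, of which 39.9% were on the WT side. The genes higher in HOM also had smaller differences: 16 of them differed by 0.5 to 1, and 1 by more. By annotation, the median share was 84.6% in 994 protein-coding genes, 53.4% in 30 pseudogenes and 91.7% in 66 noncoding and other genes.

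**Figure D2:**
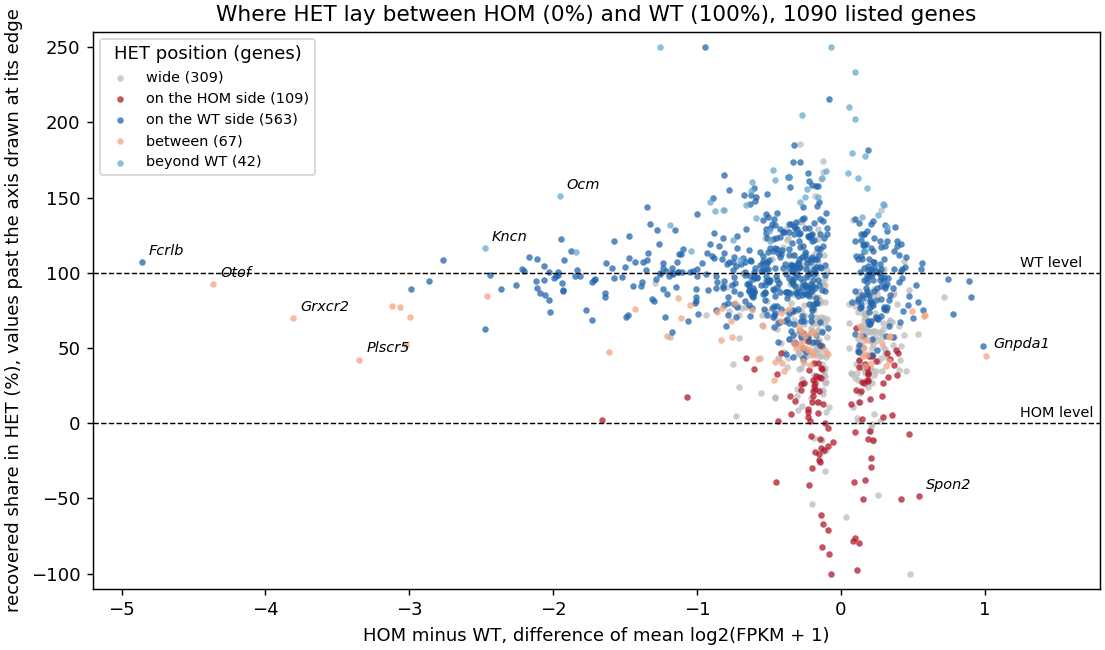
Recovered share of each of the 1090 genes (%, vertical axis, 0 at the HOM and 100 at the WT level) against the HOM minus WT difference on the log2(FPKM + 1) scale (horizontal axis), coloured by the position of HET. Genes with large falls gather around 100%, though shares of large falls also ran from 2.04% (Gm24188) to 316.4% (Mir6941), the latter drawn at the axis edge, and the spread widens as the difference shrinks.

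A direct comparison of HET with WT over 15391 expressed genes called no gene with limma (0%), with 266 genes at an unadjusted p under 0.05 and the lowest adjusted p, 0.285, at Plscr5. Without HET 1 the test again called 0 genes, but 1857 were at an unadjusted p under 0.05 (lowest adjusted p 0.116), and without HET 1 and WT 3 together 2447 were. With no difference at all, a share of 0.05 of the 15391 genes would be expected there. The 266 genes fall below that share, and both counts without HET 1 lie above it. The 0 calls with all libraries therefore say little about whether HET and WT differ. A missed threshold does not show equal levels, so intervals are given. In 104 of the 120 genes with large falls, the 95% interval of the HET minus WT difference lay wholly above a level of 50% of WT. The median HET level in these genes was 97.8% of WT (quartiles 87.3 and 104.3). The interval lay below no change in 11 of them and above it in 3, Pdzk1ip1, Ocm and Mir6941. These intervals are not adjusted for the number of genes.

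The hair cell lists hold 88 genes, of which 55 were listed in HOM and 54 tested, and 50 of the 54 fell in HOM against HET. Over all genes tested 36.3% were called lower. The lists were chosen with earlier results of these data known, and their listed members had to differ between HOM and WT. Members that the HOM libraries do not list could not be tested, so counts by list below do not describe whole lists. Their median difference from HET was -1.53, against -0.14 over the 1036 listed genes outside the lists, of which 346 were lower and 89 higher. HET was on the WT side in 39 of the 54, beyond WT in 5, between in 6 and wide in 4, with a median recovered share of 99.2%, against 82.0% outside the lists. Genes outside the lists also had smaller HOM minus WT differences (median -0.20, against -1.35 in the hair cell genes). Over the 120 genes with large falls, some of them hair cell genes, the median share was 97.2%. Without HET 1 the 54 hair cell genes were on the WT side in 25, beyond WT in 15, between in 11, on the HOM side in 2 and wide in 1, with a median share of 95.3%. For all 54 genes the 95% interval of HET minus WT lay above 50% of the WT level. Under median-ratio and upper-quartile scaling 45 and 43 were called lower, and Isl1 was called higher. Calls lower numbered 47 without HET 1, 37 without HET 2 and 36 without HET 3. Whether a lower level reflects fewer hair cells or less RNA in each cannot be told apart in whole cochleae.

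All 6 tested members of the mechanotransduction complex fell, of 9 genes in the list. Tmc1, the pore-forming channel protein of mature hair cells, was at 0.24, 0.21 and 0.28 FPKM in HOM, at 3.19, 3.95 and 3.44 in HET and at 3.03, 4.18 and 3.18 in WT. The HOM libraries were all far below the others, and HET and WT overlapped (difference from HET -1.86, SE 0.09, limma adjusted p = 6.52e-05, recovered share 102.0% ± 12, SD over the 3 HET libraries). Tmc2, the channel protein of early hair cells, was at 0.33, 0.04 and 0.30 FPKM in HOM and at 3.60, 5.36 and 4.50 in HET. Its range in HET overlapped the WT values of 4.48, 3.59 and 3.06, and the difference from HOM was -2.16 (adjusted p = 0.000306). Tomt, which is needed to bring the channel proteins to the bundle, changed by -1.86 with a share of 93.5%. Cib2, a calcium-binding subunit, changed by -1.18 (adjusted p = 0.0272), a call lost without HET 1, 2 or 3, HOM 1 or HOM 2 (adjusted p 0.0516 to 0.0782).

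Lhfpl5, which couples the tip link to the channel, was the member in which HET did not reach WT. It was at 2.24, 0.79 and 5.09 FPKM in HOM, at 23.07, 19.06 and 21.08 in HET and at 26.17, 23.60 and 29.87 in WT. All 3 groups were apart, with HET 1 and WT 2 separated by a narrow gap. The difference from HET was -2.75 (SE 0.41, limma adjusted p = 0.00473), the recovered share was 77.0% ± 8.4, and HET minus WT was -0.32 (95% interval -0.59 to -0.05). Under median-ratio scaling the HET range overlapped WT.

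The hair bundle list, proteins of the stereocilia core and shape, had 18 of 19 tested members lower, of 24 genes in the list. Under median-ratio and upper-quartile scaling 16 and 15 were called lower, and 13 without HET 2 and 13 without HET 3. Grxcr1 and Grxcr2, related proteins that shape the stereocilia, had large falls and different positions. Grxcr1 was at 1.83, 0.25 and 4.27 FPKM in HOM, at 21.05, 16.31 and 17 in HET and at 21.06, 19.23 and 20 in WT, with HET on the WT side through HET 1 (-2.84, SE 0.49, adjusted p = 0.00695, share 89.0% ± 14.2). Grxcr2 was at 2.93, 0.88 and 4.88 FPKM in HOM, at 38.66, 32.27 and 32.56 in HET and at 50.30, 45.79 and 48.46 in WT. Here every HET library lay below every WT library, with a difference from HOM of -3.33 (SE 0.39, limma adjusted p = 0.00192), a share of 69.8% ± 8.0 and a HET minus WT difference of -0.47 (95% interval -0.70 to -0.25). Whether the 2 genes' positions differ from each other was not tested.

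Loxhd1, a stereocilia membrane protein, was at 0.42, 0.02 and 0.39 FPKM in HOM, at 6.50, 8.45 and 9.72 in HET and at 8.04, 7.67 and 7.10 in WT. HET was more spread than WT and covered its whole range (difference from HOM -2.85, SE 0.18, limma adjusted p = 0.000229). Kncn, a protein of the kinocilium and apical surface, was at 0.80, 0.05 and 0.73 FPKM in HOM, at 8.75, 7.63 and 8.70 in HET and at 7.11, 7.22 and 7.45 in WT. Its HET libraries were all above WT, and the share was 116.3% ± 9.4, although the interval of HET minus WT (-0.02 to 0.37) included no change. Espnl, an espin-like actin-binding protein, lay between (share 84.8%). Espn, the espin itself, was not called (-0.74, adjusted p = 0.0729), but was called without HOM 3 (0.0136), with all 3 groups in the fit (0.0347) and with a replicate block (0.0499).

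**Figure D3:**
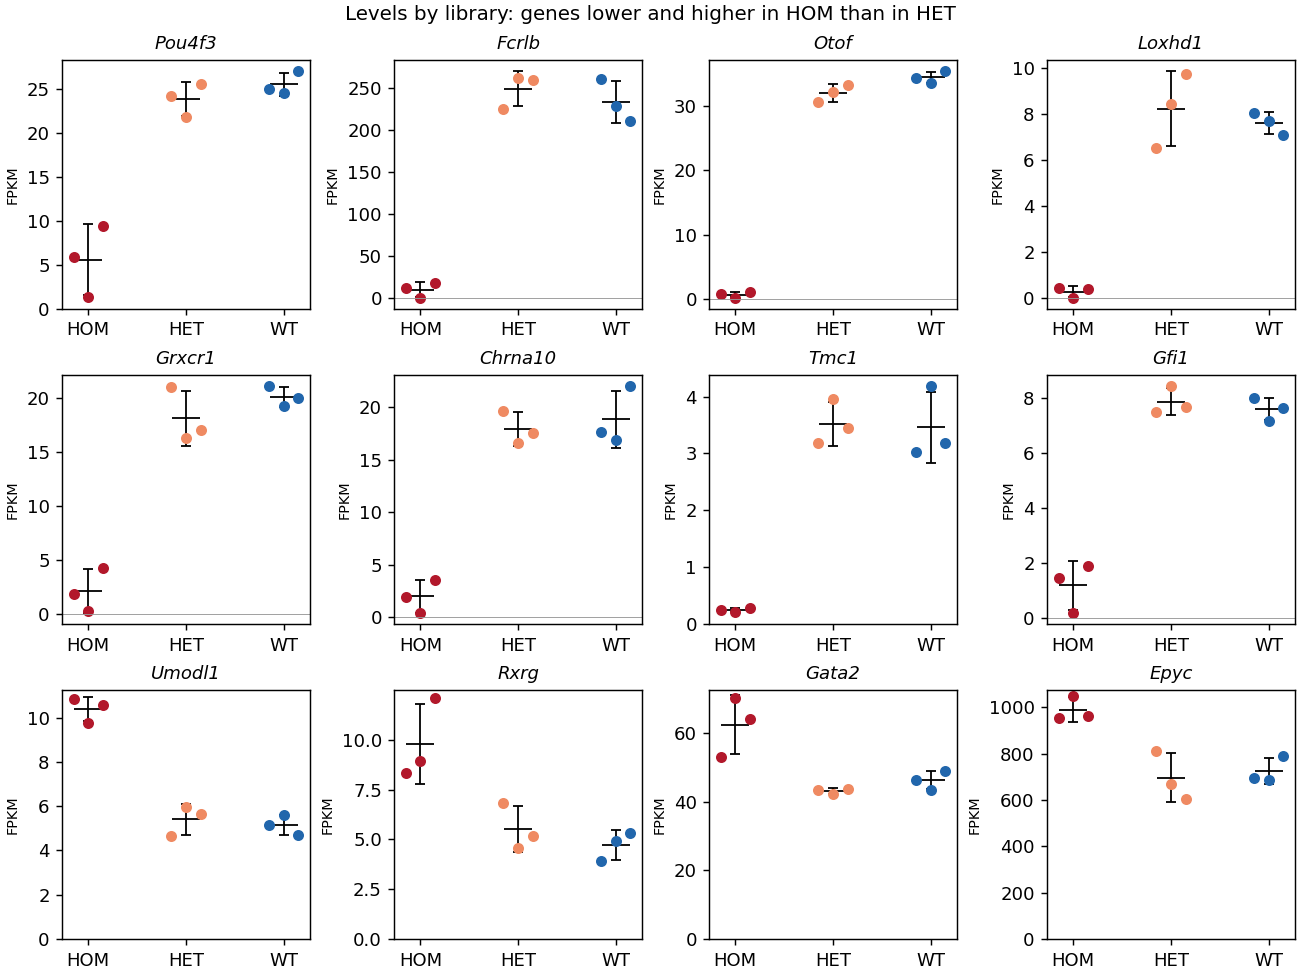
Level of 12 genes (FPKM, vertical axis) in each HOM, HET and WT library (points), with group means and SD bars (n = 3). In the upper 8 panels HOM is below HET and WT, and in the lower 4 panels it is above them. HET and WT overlap in all panels but that of Otof, where the highest HET library is at 33.26 and the lowest WT library at 33.58.

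Among Usher proteins and link proteins, which form the links between stereocilia, 3 of 5 tested members fell, of 9 genes in the list. Myo7a, the motor of the tip-link anchor, changed by -1.20 (adjusted p = 0.0213), a call lost without HET 2 (0.0647) and without HET 3 (0.0706). Pdzd7, a scaffold of the ankle links, changed by -0.77 with a share of 91.5%. Whrn, the scaffold whirlin, was at 3.68, 3.64 and 3.64 FPKM in HOM, at 4.95, 4.83 and 5.27 in HET and at 6.27, 5.69 and 5.34 in WT. HET was apart from both, next to WT 3, with a share of 64.5% (difference from HOM -0.37, adjusted p = 0.00748, not called under upper-quartile scaling at 0.0593). Clrn1 (-0.59, adjusted p = 0.0958) and Ush1c (-0.21, 0.121) were not called. Clrn1 was called without HOM 3 (0.0216), and Ush1c without HET 1 (0.00754). Clrn2 was too low to test.

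The hair cell synapse list of 10 genes had 3 tested members, all lower. Otof, the calcium sensor for transmitter release, was at 0.87, 0.29 and 1.11 FPKM in HOM, at 30.56, 32.10 and 33.26 in HET and at 34.36, 33.58 and 35.34 in WT. Its HET libraries all lay under WT, by a margin smaller than the spread of either group, and the share was 92.7% ± 4.0. The interval of HET minus WT (-0.27 to 0.06) included no change, while the difference from HOM was -4.26 (SE 0.18, limma adjusted p = 3.51e-05). Cacna1d, the calcium channel of the synapse, changed by -0.61 with a share of 100.5% ± 41.7, and Ctbp2, whose product forms the ribbon, by -0.25, a call lost under both scalings (adjusted p = 0.169 and 0.510).

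All 6 tested genes for efferent receptors, channels and pumps fell, of 9 genes in the list. Chrna10, a subunit of the receptor that takes efferent input, was at 1.99, 0.47 and 3.53 FPKM in HOM, at 19.65, 16.55 and 17.57 in HET and at 17.66, 16.88 and 21.96 in WT. HET and WT overlapped (difference from HOM -2.80, SE 0.38, limma adjusted p = 0.00347). Its partner subunit Chrna9 changed by -1.24 (adjusted p = 0.0250), a call lost when any of the HET libraries was left out (0.0535 to 0.0724) and with a pseudocount of 0.1 (0.0589). Atp2a3, a calcium pump of the endoplasmic reticulum, was at 0.29, 0.16 and 0.28 FPKM in HOM, at 6.43, 8.14 and 8.44 in HET and at 9.82, 10.09 and 9.48 in WT. Its 3 groups were apart, with HET 1 lowest in HET, a share of 77.7% ± 11.3 and a HET minus WT difference of -0.32 (95% interval -0.58 to -0.06). The potassium channel gene Kcna10 (-2.28, share 110.6%) and Kcnn2, a potassium channel opened by calcium, (-0.48, share 126.9%) had HET on the WT side.

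Of 14 transcription factors in the hair cell list, 5 were tested and 4 of these fell, Pou4f3 among them. Gfi1, a zinc finger factor of hair cell survival, was at 1.47, 0.21 and 1.91 FPKM in HOM, at 7.51, 8.42 and 7.69 in HET and at 8, 7.17 and 7.63 in WT. HET and WT could not be separated by range, and the difference from HOM was -2.11 (SE 0.32, limma adjusted p = 0.00473, share 104.3% ± 7.5). Lhx3, a LIM homeodomain factor, changed by -1.71 (adjusted p = 0.00721), and its share was 74.0% ± 13.2. Atoh1, the factor that starts hair cell fate, changed by -0.72 (adjusted p = 0.0448); its HET range overlapped both other groups, and the call was lost when any of the HET libraries, HOM 1 or HOM 2 was left out, with a pseudocount of 0.1 and under both scalings (0.0516 to 0.128). Isl1, a LIM homeodomain factor, was not called (0.18, adjusted p = 0.0504), and was called higher in HOM under both scalings (0.00676 and 0.00637).

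All 10 tested hair cell identity genes, of 13 in the list, fell, and HET was on the WT side in 8 and beyond it in 2. Ocm, the calcium buffer oncomodulin of outer hair cells, was at 4.29, 0.54 and 6.93 FPKM in HOM, at 18.88, 21.24 and 19.92 in HET and at 13.95, 14.61 and 15.15 in WT. Every HET library exceeded every WT library, with a share of 151.1% ± 11.1 and a HET minus WT difference of 0.43 (95% interval 0.25 to 0.62), which did not pass the adjusted threshold over all genes. Its difference from HOM was -2.39 (adjusted p = 0.0192), lost without HET 2 (0.0604) and without HET 3 (0.0606). Tmem255b (-2.20, lost without HET 2 at 0.0594 and HET 3 at 0.0606), Strip2 (-2.20), Ccer2 (-1.96) and Cd164l2 (-1.96) fell as well, with shares of 101.1%, 109.5%, 96.9% and 86.6%.

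**Figure D4:**
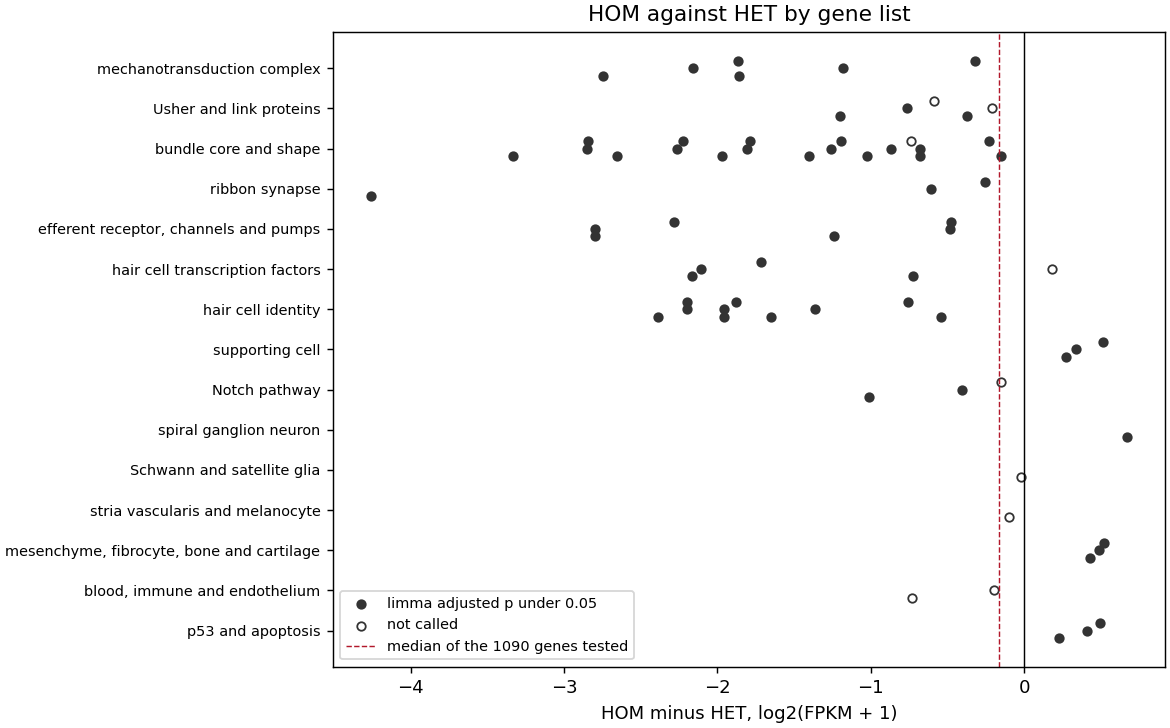
HOM minus HET difference on the log2(FPKM + 1) scale (horizontal axis) for each tested member of each gene list (vertical axis); filled points passed the limma threshold and open points did not. Members of the 7 hair cell lists lie left of the median of all genes tested (dashed line, -0.16) except Isl1 and Pls1, and the called supporting cell, mesenchyme and p53 genes lie to the right of 0.

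Fcrlb, an Fc receptor-like gene outside the lists, had a larger fall than any other gene named here. It was at 12.47, 1.02 and 17.95 FPKM in HOM, at 224.73, 261.77 and 258.94 in HET and at 260.35, 227.77 and 210.31 in WT. The HET and WT ranges overlapped, with HET 2 above every WT library and WT 3 below every HET library, and the difference from HOM was -4.96 (SE 0.80, limma adjusted p = 0.00599, share 107.0% ± 9.3). Rasd2, a small GTPase gene, changed by -2.43 with a share of 98.9%. The microRNA gene Mir6941 was at 0 in every HOM library and rested on 13 recovered fragments in HET and 4 in WT. By depth-scaled fragments, HET was at 3.99-fold a floor of 3 fragments set for the HOM group. The counting error of the 13 HET fragments is not part of this figure, so it is not a lower bound.

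The 3 HOM libraries were not alike in depth of loss. Over the 116 genes called lower by at least 1, HOM 2 was the lowest HOM library in 104 and HOM 3 the highest in 79. The median level was 22.1%, 8.41% and 30.2% of the HET mean in HOM 1, 2 and 3. Pou4f3 itself followed that order. In the HET group HET 1 was the lowest library in 45 of these genes and the highest in 58.

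Among annotated genes at least 1 apart between HOM and WT and with HET between them, the lowest recovered share was that of Plscr5, of the phospholipid scramblase family. It was at 0.06, 0 and 0 FPKM in HOM, at 3.81, 3.67 and 4.48 in HET and at 8.68, 9.68 and 9.82 in WT. The groups were far apart from each other and tight within, and HET stood at 42.4% of WT (recovered share 42.3% ± 4.6). HOM held 1 recovered fragment, HET 233 and WT 521, and HOM was 0.467% of HET by depth-scaled fragments (exact 95% binomial counting interval 0.0118% to 2.63%). The difference from HET was -2.29 (SE 0.09, limma adjusted p = 3.51e-05), and HET minus WT was -1.06 (95% interval -1.29 to -0.83, adjusted p = 0.285 over all genes). No alternative tried moved its position.

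Kif21b, a kinesin motor gene, was at 1.10, 0.99 and 1.75 FPKM in HOM, at 2.75, 3.15 and 3.08 in HET and at 4.03, 4.44 and 4.20 in WT. HET lay in the middle with a gap on either side, a share of 58.2% ± 7.3 and a difference from HOM of -0.82 (SE 0.14, limma adjusted p = 0.00662). Cdcp2, a CUB domain gene, was at or below 0.06 FPKM in HOM, at 1.24 to 1.55 in HET and at 1.60 to 2.06 in WT (share 76.0%). Tmprss7, a membrane serine protease gene, had a share of 83.1%. In both, the gap between the HET and WT ranges was smaller than the SD of the WT libraries.

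Gnpda1, an enzyme of amino sugar metabolism, was the single gene higher in HOM than in WT by at least 1. It was at 15.78, 12.92 and 15.61 FPKM in HOM, at 11.98, 10.83 and 10.76 in HET and at 7.25, 6.89 and 6.27 in WT. The groups did not overlap, and HET lay near the middle with a share of 44.9% ± 8.6. HOM minus HET was 0.37 (SE 0.09, limma adjusted p = 0.0198), a call lost without HET 2, HET 3, HOM 1 or HOM 3 (0.0526 to 0.0680). HET minus WT was 0.64 (95% interval 0.44 to 0.85).

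**Figure D5:**
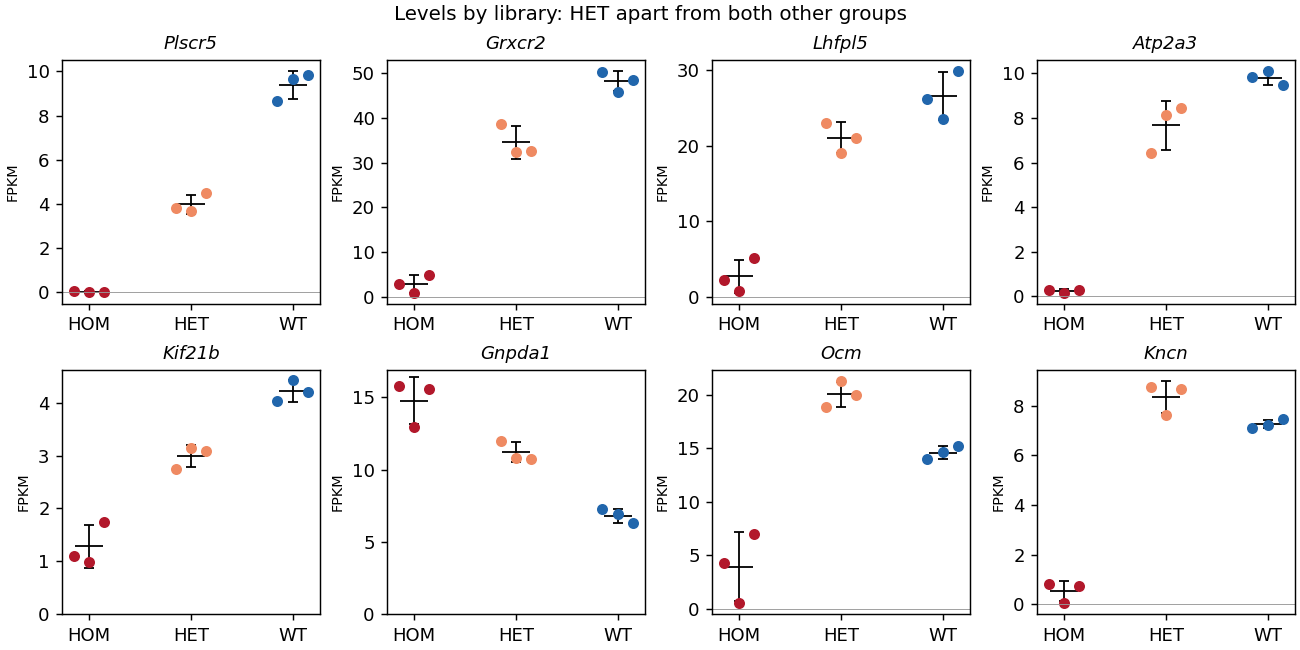
Level of 8 genes (FPKM, vertical axis) in each HOM, HET and WT library (points), with group means and SD bars (n = 3). HET lies apart from both other groups in every panel: between them in the first 6, and above WT in Ocm and Kncn.

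HET was on the HOM side, with HOM and WT at least 0.5 apart, in 5 genes. They include the predicted genes Gm24188 and Gm15459, with falls of at least 1 from WT and shares of 2.04% and 17.1%. Reep6, of a family of endoplasmic reticulum proteins, was at 2.65, 2.98 and 4.71 FPKM in HOM, at 5.01, 3.46 and 5.08 in HET and at 5.46, 6.14 and 6.09 in WT. HET spread over the upper HOM range and the gap to WT (share 43.7% ± 37.4), and HOM minus HET was -0.32 (limma adjusted p = 0.215). Fam241a was similar, at a share of 36.1% ± 34.4. Spon2, a secreted matrix protein gene, was at 10.98, 7.97 and 10.86 FPKM in HOM, at 14.78, 9.10 and 11 in HET and at 6.84, 6.41 and 6.08 in WT. Both mutant groups were above WT, the share was -48.4% ± 82.8, and HOM and HET were not separated (-0.20, adjusted p = 0.397). The positions of Reep6 and Fam241a moved under median-ratio scaling and without HOM 3, and that of Reep6 also without HET 2.

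HET exceeded WT in few genes with large falls. Pdzk1ip1, a small membrane protein gene, was at 2.08, 1.62 and 2.64 FPKM in HOM, at 7.30, 6.98 and 7.67 in HET and at 6.18, 5.29 and 6.69 in WT, a share of 132.1% ± 8.8. Trim36, a ubiquitin ligase gene, reached 113.8% and Mmp24, a membrane-type metalloproteinase gene, 114.6%. Their intervals of HET minus WT were 0.01 to 0.48 for Pdzk1ip1, -0.04 to 0.31 for Trim36 and -0.08 to 0.28 for Mmp24. The call of Mmp24 against HOM (-1.14, adjusted p = 0.0135) was lost without HET 2 (0.0502).

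Genes higher in HOM than in HET changed by less than 1, and HET was on the WT side in 73 of the 89, beyond WT in 11, between in 4 and wide in 1. A gene called here had to differ between HOM and HET, so these counts are set by that choice; over all 343 genes higher in HOM than in WT, 137 were on the WT side and 47 on the HOM side. Umodl1, a uromodulin-like gene, was at 10.82, 9.77 and 10.55 FPKM in HOM, at 4.63, 5.94 and 5.65 in HET and at 5.14, 5.58 and 4.68 in WT. HOM was apart from both others, and the rise was 0.83 (SE 0.09, limma adjusted p = 0.00168, share 94.8% ± 13.1). Gata2, a zinc finger transcription factor, was at 53.16, 70.21 and 64.03 FPKM in HOM, at 43.50, 42.27 and 43.73 in HET and at 46.40, 43.55 and 48.99 in WT. HET had the tightest group and reached the lowest WT library, with a rise in HOM of 0.51 (adjusted p = 0.0108). P2rx3, an ATP-gated channel of sensory neurons, rose by 0.67 (adjusted p = 0.0102), Brinp1, a neural gene, by 0.62 (0.0122) and the nuclear receptor gene Rxrg by 0.72 (0.0197). The call of Rxrg was lost without HET 2 or HET 3 (0.0614 and 0.0654).

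Markers of other cell types were few among the listed genes, and those called were higher in HOM. The connexin genes Gjb2 (0.34) and Gjb6 (0.28) and the matrix gene Epyc (0.52), all of supporting cells, rose, as did the matrix genes Fmod (0.52), Dcn (0.49) and Lum (0.43) of mesenchyme. Epyc was at 952.13, 1050.07 and 963.31 FPKM in HOM, at 812.92, 668.72 and 605.61 in HET and at 695.96, 687.62 and 787.59 in WT. HET 1 was the HET library nearest to HOM, and the share was 110.6% ± 40.1. Only 3 of 15 supporting cell and 3 of 16 mesenchyme markers were listed, and the listed supporting cell markers summed to 1192 to 1317 FPKM in HOM, 798 to 1021 in HET and 878 to 985 in WT. All 6 were also called higher under both scalings, but each call was lost without HET 2 and without HET 3 (adjusted p 0.0516 to 0.138). Fmod was also lost without HOM 1 (0.0547), Epyc without HOM 1 (0.0548) or HOM 3 (0.0657), and Dcn without HOM 2 (0.116) or HOM 3 (0.112). Dcn was lost too with a pseudocount of 0.1 (0.0538), at a minimum of 3 FPKM (0.0518) and without the trend (0.0563). Hbb-bs and Alas2, of red blood cells, were not called (-0.73 at adjusted p = 0.0762 and -0.20 at 0.248). Mag, of Schwann cells, and Atp1b2, of the stria vascularis, were not called either (-0.02 at 0.926 and -0.10 at 0.257).

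Genes of p53 signalling and apoptosis had 3 listed members of 13, all higher in HOM. Pidd1, a p53-induced death domain gene, was at 2.22, 2.32 and 2.65 FPKM in HOM, at 1.8, 1.23 and 1.24 in HET and at 1.53, 1.44 and 1.81 in WT. Every HOM library exceeded every other library, with a rise of 0.49 from HET (SE 0.12, limma adjusted p = 0.0194), and HET 1 was the HET library nearest to HOM. Hrk, a pro-apoptotic BH3 gene, rose by 0.41 (adjusted p = 0.0394). Pidd1 was lost without HET 2, HET 3 or HOM 3 (0.0523 to 0.0691), and Hrk without HET 2 or any HOM library (0.0660 to 0.113).

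In the Notch pathway, by which hair cells hold neighbours to the supporting cell fate, 2 of 3 tested members fell, of 17 genes in the list. Mfng, a glycosyltransferase that modifies Notch, changed by -1.01 (adjusted p = 0.0448) and the ligand gene Jag1 by -0.41 (0.0229), with shares of 106.7% and 103.2%. Neither was called under either scaling (0.0647 and 0.0686 for Mfng, 0.0903 and 0.202 for Jag1). Without HET 2 and without HET 3 both calls were lost as well (0.0727 to 0.104), without HET 1 or HOM 1 that of Mfng (0.0995 and 0.0725), and without HOM 3 that of Jag1 (0.0616). Nrarp, a feedback inhibitor, was at 5.47, 5.16 and 5.78 FPKM in HOM, at 5.95, 6.54 and 6.03 in HET and at 7.08, 7.39 and 8.04 in WT. HET lay between, nearer to HOM (share 34.6% ± 15.7), and was not called against HOM (-0.15, adjusted p = 0.116).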

How the data were processed

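Whole-cochlea RNA at postnatal day 3 was sequenced in 9 libraries. The deposited values are FPKM, calculated by the authors for each library. DESeq2 and the mm8 build are named in the submitters' processing notes. For the aligner, counter and annotation, the sources used here name nothing. Gene identifiers in the files were matched to GENCODE, and 1136 of the 1137 listed genes had a symbol. The column of HET 3 carries another number in its file, and the title was followed.

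HOM was compared with HET by limma 3.58.1 in R 4.3.3, with a mean-variance trend, on log2(FPKM + 1). Genes needed 1 FPKM in at least 3 of the 6 libraries. This left 1090 listed genes. The 47 not tested included 19 protein-coding genes and 5 at 0 in every HOM library, and their highest HET mean was 2.25 FPKM. Tests were two-sided, and p-values were adjusted by Benjamini-Hochberg (threshold 0.05). Since only listed genes entered, this is a milder correction than over every expressed gene. Fold sizes on this scale understate the change of low genes. HET and WT were compared in the same way over all expressed genes. The script was tested on simulated data. Recovered share, position and exact permutation test are described with the results.

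Depth was recovered from low FPKM values, which times exon length are whole multiples of a step. At that depth 99.3% to 100% of values in short genes were whole within 0.1. Intervals from fragments cover counting error only.

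Genes named were Pou4f3, the 12 largest falls and 10 largest rises among called genes, those with the lowest shares among genes between, those with the largest differences on the HOM side, those with the highest shares beyond WT, and up to 5 members of each gene list with the largest differences. Predicted genes were left out, and some genes under this rule are not reported here. Members, lists and tests were chosen with earlier results of these data known. Replicate numbers are shared by the groups but did not pair the libraries: the correlations of same-numbered HOM and HET deviations were -0.324, 0.0886 and -0.158. Alternatives were another pseudocount, other minimum levels, 2 scalings, a fit of all 3 groups, no trend, a replicate block, and leaving out each library.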

Additional observations from a re-analysis of the deposited data

How the results depend on the processing

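The number of genes called between HOM and HET was 485, and ranged from 242 to 508 when single libraries were left out (lower in HOM 215 to 404, higher in HOM 27 to 104). With a replicate block it was 304, of which 29 were higher in HOM and 299 were among the 485. Among the genes named, the block lost the calls of Epyc, Pidd1, Dcn, Gjb2, Gjb6, Jag1, Lum and Hrk (adjusted p 0.0549 to 0.110) and added Hbb-bs (0.0255) and Espn (0.0499). It also lost Myo6, Pls1, Tmie and Triobp (0.0586 to 0.108). Median-ratio scaling called 259 lower and 257 higher, upper-quartile scaling 222 and 293, and 348 and 311 of their calls were shared with the 485. A minimum of 3 FPKM left 829 genes with 349 calls. Genes with HET on the HOM side numbered 28 under either scaling, and wide genes 104 and 99. After scaling, 356 and 369 of 1086 genes had overlapping HOM and WT ranges and so took no position, against 0 of the listed genes in the deposited FPKM. The separation of listed genes thus also depended on the scaling. Leaving out single libraries gave 494 to 624 genes on the WT side, 42 to 163 beyond WT, 78 to 143 between, 96 to 199 on the HOM side and 84 to 286 wide. The highest counts beyond WT, between and on the HOM side and the lowest count of wide genes were those without HET 1; without WT 3, 76 were beyond WT and 102 between, and without HET 2, 197 were wide. Without HET 1 and WT 3, a choice made after the data were seen, 208 were beyond WT, 197 between, 214 on the HOM side and 69 wide. The median recovered share of the hair cell genes, 99.2%, was 95.2% to 102.2% without single libraries and 96.0% at a minimum of 3 FPKM. HET against WT gave 0 to 1 calls without single libraries, Rpl29 without WT 1 and Xist without WT 2. Signs turned, with no call, for Spon2 (0.0065), Ush1c (0.0078) and Nrarp (0.039) under upper-quartile scaling, for Atp1b2 under both scalings (0.066 and 0.12), and for Mag with a pseudocount of 0.1 (0.0035), under both scalings (0.062 and 0.088), and when single libraries were left out (-0.19 to 0.21, higher in HOM without HET 1 or HOM 1). The sign of Pls1, called lower with the deposited values, also turned under both scalings, with no call (0.017 and 0.068). The cause of these shifts was not tested. With 3 libraries a group, small differences could be missed, although some were called, such as those of Clip2 (-0.15) and Aldh16a1 (0.21).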

Other observations

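Some hair cell genes outside the named set, picked after their values were seen, had HET libraries that did not agree among themselves. Slc26a5, which encodes the motor protein prestin of outer hair cells, was at 0.46, 0.13 and 0.21 FPKM in HOM, at 1.26, 6.23 and 5.05 in HET and at 1.70, 1.92 and 0.80 in WT. HET 2 and HET 3 stood above all WT libraries, and HET 1 lay within the WT range. Ptprq, a stereocilia membrane protein, was at 7.65, 16.70 and 15.89 FPKM in HET 1, 2 and 3 and at 9.24 to 14.02 in WT. Myo6, a motor at the base of the stereocilia, was at 29.93, 43.53 and 42.76 in HET and at 30.73 to 38.27 in WT. In both genes HET 1 was the lowest HET library and WT 3 the lowest WT library.

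The chromosome that carries Pou4f3, chromosome 18, held 50 of the genes tested, and HET lay between HOM and WT in 8 of them (16%), against 59 of 1040 elsewhere (5.67%). The median recovered share was 68.6% there and 84.8% elsewhere. The 8 genes were Srfbp1, Fech, Cdo1, Cables1, 4933408B17Rik, Gnpda1, Aldh7a1 and Grxcr2. Chromosome 1, with 9 of 63 (14.3%), had a similar part. These counts were chosen after the data were seen and carry no test.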
